A study of Mus musculus with 6 samples.

Results

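The mitochondrial carriers are the Slc25a genes, which encode small membrane proteins that exchange metabolites across the inner mitochondrial membrane, together with the uncoupling proteins Ucp1, Ucp2 and Ucp3. They were taken by name from the gene table of the count matrix, which gave 50 genes of 49315, made up of 47 Slc25a genes and the 3 uncoupling proteins. RNA was sequenced from the gastrocnemius of male C57BL6J mice that had received AAV9-HSA-CAAHR (3 libraries, replicates 31, 34 and 36) or AAV9-HSA-GFP (3 libraries, replicates 42, 43 and 46) into the muscle. CAAHR is a constitutively active mouse aryl hydrocarbon receptor (AHR) from which the ligand binding domain was deleted, and the GFP of the control vector was ZsGreen1. Mice were injected at 5 months of age and muscles were taken 5 months later. Both groups carried an AAV serotype 9 vector driven by HSA, the promoter of human skeletal actin, which restricts expression to myofibres, and no uninjected muscle was analysed here. By qPCR, the paper reports that selected immune genes were not lower in CAAHR muscles than in mice without AAV. That comparison was not repeated with these libraries. The RNA came from whole muscle tissue, so transcripts of non-muscle cells were counted with those of the fibres, and a loss of cells of one type cannot be told apart from less RNA per cell. The libraries are numbered singly in the labels, and p-values set the difference between the groups against the spread between libraries within each group.

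The inner mitochondrial membrane lets few solutes through, so ATP, phosphate, the acids of the citric acid cycle, amino acids, acylcarnitines, iron and cofactors enter and leave the matrix through carriers. In skeletal muscle the most abundant carrier is the ADP/ATP translocase Slc25a4 (ANT1), which delivers ATP to the contractile apparatus. Ucp1 is the thermogenic proton carrier of brown fat, Ucp2 is widely expressed, including in immune cells, and Ucp3 is largely restricted to skeletal muscle, heart and brown fat, where its transcript is known to rise when fatty acid supply is high and is a target of the peroxisome proliferator-activated receptors (PPARs). AHR binds DNA at a core of the letters GCGTG and induces Cyp1a1, a xenobiotic-metabolising enzyme.

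Library totals ranged from 43432994 to 58825752 counts, and libraries of one group were not repeat runs of one sample (pairwise chi-square of 23.2 to 167 for each degree of freedom). Ahr and its target Cyp1a1 were higher in every CAAHR library than in any GFP library. Ahr stood at 9.97, 22.8 and 17.3 CPM (counts scaled to a library of 1000000, with library sizes adjusted by TMM factors) in CAAHR replicates 31, 34 and 36 and at 2.47, 2.55 and 1.87 CPM in GFP replicates 42, 43 and 46, a log2 change of 2.87 ± 0.31 (SE) in which reads of the vector and of the mouse gene are not separated. Cyp1a1 rose by 7.77 ± 0.20 on the log2 scale. Muscle fibre markers were high throughout. Over 7 genes they summed to 116652 to 143307 CPM in CAAHR muscles and 167348 to 168200 CPM in GFP muscles. Of the 7, Acta1 and Ckm fell. Myh4, the largest part of the sum in every library, did not pass (log2 change -0.31 ± 0.18, edgeR adjusted p = 0.325). The fitted log2 change was above 0 for Mb (1.03 ± 0.62), Myh1 (0.997 ± 0.65), Myh2 (1.38 ± 0.81) and Ttn (0.03 ± 0.13). None of these passed, so the lower sum does not describe every marker. The libraries also differed in markers of slow fibres and of other cells. The 9 slow fibre markers summed to 2913, 683 and 2665 CPM in CAAHR replicates 31, 34 and 36 and to 239 to 520 CPM in GFP muscles. In edgeR 0 of the 9 passed the test, against 7.60% of all genes, and 7 had an unadjusted p under 0.05, against 23.9%. In DESeq2 7 passed and in limma-voom 8, against 10.7% and 9.22% of all genes. Summed adipocyte (4.39 to 23.0 against 36.7 to 98.9 CPM), macrophage (18.4 to 33.0 against 39.0 to 76.7 CPM), lymphocyte (9.04 to 19.4 against 123 to 398 CPM) and neutrophil markers (1.41 to 1.88 against 5.14 to 11.8 CPM) were lower in CAAHR muscles, with no library overlapping and no marker at 0 in all CAAHR libraries. Lyz2 was the largest part of the macrophage sum, at 14.9, 8.54 and 14.5 CPM in CAAHR muscles and 20.7, 47.1 and 28.9 CPM in GFP muscles. Lyz2, Adgre1, Cd68 and Mrc1 did not overlap between the groups, whereas Csf1r and Cd163 did. Most of the lymphocyte sum was Ighm, at 17.8, 15.6 and 7.82 CPM in CAAHR muscles and 121, 392 and 253 CPM in GFP muscles. Cd79a also fell, while the T cell marker Cd3e overlapped between the groups and did not pass (edgeR adjusted p = 0.516).

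Promoter sequences are shown first for 3 of the carriers whose transcript differed between the groups, because the vector encodes a DNA-binding factor and Ucp3 is a known nuclear receptor target. They are RefSeq promoters on GRCm38.p6, each running from 250 bases before the start of transcription to 50 bases after it. The promoters used here included none for Slc25a37 or Slc25a46, whose transcripts also differed. GCGTG was sought on both strands (CACGC on the reverse), as was AGGTCA, the hexamer bound by nuclear receptors such as the PPARs, and matches are in capitals. The promoter of Ucp3 (chr7:100472741-100473040, plus strand) held 2 AGGTCA hexamers, 149 and 44 bases before the start, and no GCGTG. That of Slc25a1, the citrate carrier (chr16:17928170-17928469, minus strand), held 5 GCGTG cores at 172, 96, 46, 41 and 17 bases before the start. Slc25a22, a mitochondrial glutamate carrier, has 3 listed starts, of which the one furthest downstream (chr7:141434545-141434844, minus strand) held 3 GCGTG cores and the others held none.
Ucp3: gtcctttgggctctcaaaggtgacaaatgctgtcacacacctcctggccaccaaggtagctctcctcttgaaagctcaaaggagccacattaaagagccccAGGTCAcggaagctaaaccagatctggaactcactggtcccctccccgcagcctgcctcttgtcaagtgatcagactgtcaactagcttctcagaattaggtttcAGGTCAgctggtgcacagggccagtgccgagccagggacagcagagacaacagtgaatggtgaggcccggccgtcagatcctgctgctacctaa
Slc25a1: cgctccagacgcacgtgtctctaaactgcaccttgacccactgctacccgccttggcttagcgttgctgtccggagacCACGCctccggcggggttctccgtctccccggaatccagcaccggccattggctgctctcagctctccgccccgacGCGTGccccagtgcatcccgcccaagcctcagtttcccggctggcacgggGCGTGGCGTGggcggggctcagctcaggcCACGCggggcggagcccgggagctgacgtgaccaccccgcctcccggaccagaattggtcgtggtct
Slc25a22: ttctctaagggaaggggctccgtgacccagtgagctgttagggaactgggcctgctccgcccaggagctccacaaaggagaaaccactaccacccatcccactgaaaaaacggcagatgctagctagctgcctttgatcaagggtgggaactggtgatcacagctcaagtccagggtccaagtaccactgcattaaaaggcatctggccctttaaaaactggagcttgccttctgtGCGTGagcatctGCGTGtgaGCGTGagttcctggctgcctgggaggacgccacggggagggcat
A GCGTG core is common in windows of this length. It was present in 32.4% of all 32851 promoters and in 27 of the 49 promoters listed for 39 of the carriers (55.1%), without correction for base composition. AGGTCA was present in 16.3% of all promoters and in 6 of those 49 (12.2%). A match describes the letters in the window and does not show binding, and the carrier that fell, Slc25a1, had more GCGTG cores than either of the others shown.

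AAV9-HSA-CAAHR muscles displayed higher transcript levels of Ucp3, Slc25a22, Slc25a37 and Slc25a46 and a lower level of Slc25a1 than AAV9-HSA-GFP muscles. Of the 50 carriers, 42 had enough counts to be tested and 5 of these (11.9%) passed the test at an adjusted p under 0.05 (edgeR quasi-likelihood F test, Benjamini-Hochberg adjustment over 15847 genes). The share over all tested genes was 7.60%, with 3.04% higher and 4.57% lower, against 4 carriers higher and 1 lower. DESeq2 and limma-voom each called 9 carriers, 8 higher and 1 lower, including these 5, out of 44 and 42 with an adjusted p, against 10.7% and 9.22% of all genes in those tools. Those shares were 4.39% higher and 6.30% lower in DESeq2 and 4.25% higher and 4.97% lower in limma-voom. Both added Slc25a28, Slc25a34 and Slc25a47, DESeq2 further added Slc25a42 and limma-voom Slc25a20. At an unadjusted p under 0.05 in edgeR there were 11 carriers, 10 higher and 1 lower, against 23.9% of all genes. The fitted change was above 0 for 30 of the 42 carriers, against 51.2% of all genes, and its median was 0.14 on the log2 scale against 0.01. The groups did not overlap for 13 carriers, of which 10 were higher and 3 lower in CAAHR muscles (29.9% of all genes, 15.0% higher and 14.9% lower). The remaining 8 carriers were not tested. Ucp1 and Slc25a54 had 0 counts in all 6 libraries, and Slc25a18, Slc25a21, Slc25a31, Slc25a41, Slc25a43 and Slc25a48 had at most 15 counts in any library.

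**Figure D1:**
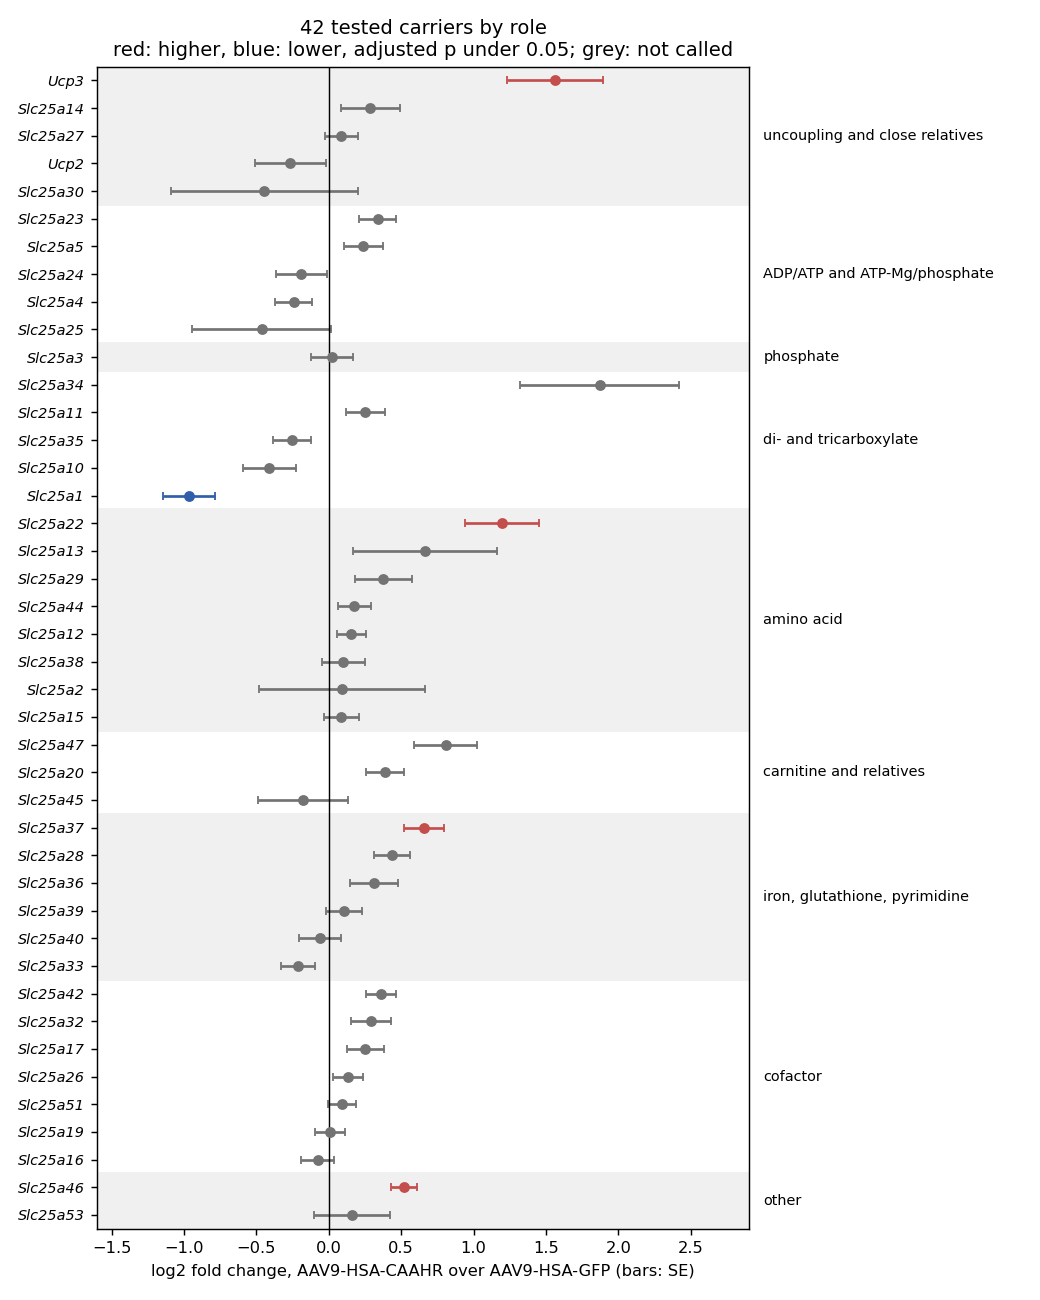
Fitted log2 fold change (CAAHR minus GFP, horizontal axis) of the 42 tested carriers, ordered by what they carry; bars are SE, and coloured points have an adjusted p under 0.05 (red higher, blue lower in CAAHR). The 5 coloured points are Slc25a1 on the lower side and Slc25a46, Slc25a37, Slc25a22 and Ucp3 on the higher side.

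Ucp3 showed the largest change among the carriers that passed the test. Its level was 313, 377 and 438 CPM in CAAHR replicates 31, 34 and 36 and 126, 183 and 73.0 CPM in GFP replicates 42, 43 and 46. All CAAHR libraries lay above all GFP libraries, and the GFP libraries spread more widely in relation to their mean. The means were 376 ± 62.4 and 127 ± 55.1 CPM (SD, n = 3), and the fitted log2 change was 1.56 ± 0.33 (SE), or 2.95-fold (edgeR adjusted p = 0.0406). Removing any CAAHR replicate, or GFP replicate 42, ended the call and removing GFP replicate 43 or 46 did not, with log2 changes of 1.28 to 1.92 and adjusted p from 0.00841 to 0.129 over the 6 edgeR fits.

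The other uncoupling proteins were undetected or did not pass the test. Ucp1 had 0 counts in every library, where 3 counts would correspond to 0.0492 to 0.0721 CPM. Ucp2, the neighbour of Ucp3 on chromosome 7, stood at 13.1, 8.03 and 12.8 CPM in CAAHR muscles and 10.4, 17.8 and 12.8 CPM in GFP muscles. The groups overlapped, and the log2 change of -0.26 ± 0.24 did not pass the test (edgeR adjusted p = 0.572). The summed macrophage and lymphocyte markers, which mark cells that also express Ucp2, were lower in CAAHR muscles as given above. Lyz2 was the largest part of the macrophage sum, and Csf1r and Cd163 overlapped between the groups. In edgeR 0 of 6 macrophage markers passed, against 7.60% of all genes, and 4 had an unadjusted p under 0.05, against 23.9%. In DESeq2 4 passed and in limma-voom 1, against 10.7% and 9.22% of all genes. In edgeR 2 of 4 tested lymphocyte markers passed, against 7.60% of all genes. They were Cd79a and Ighm, of which Ighm made up most of the lymphocyte sum. The part of these cells in the Ucp2 value was not tested. The related Slc25a14, Slc25a27 and Slc25a30 ranged from -0.44 to 0.29 on the log2 scale and none of them passed.

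**Figure D2:**
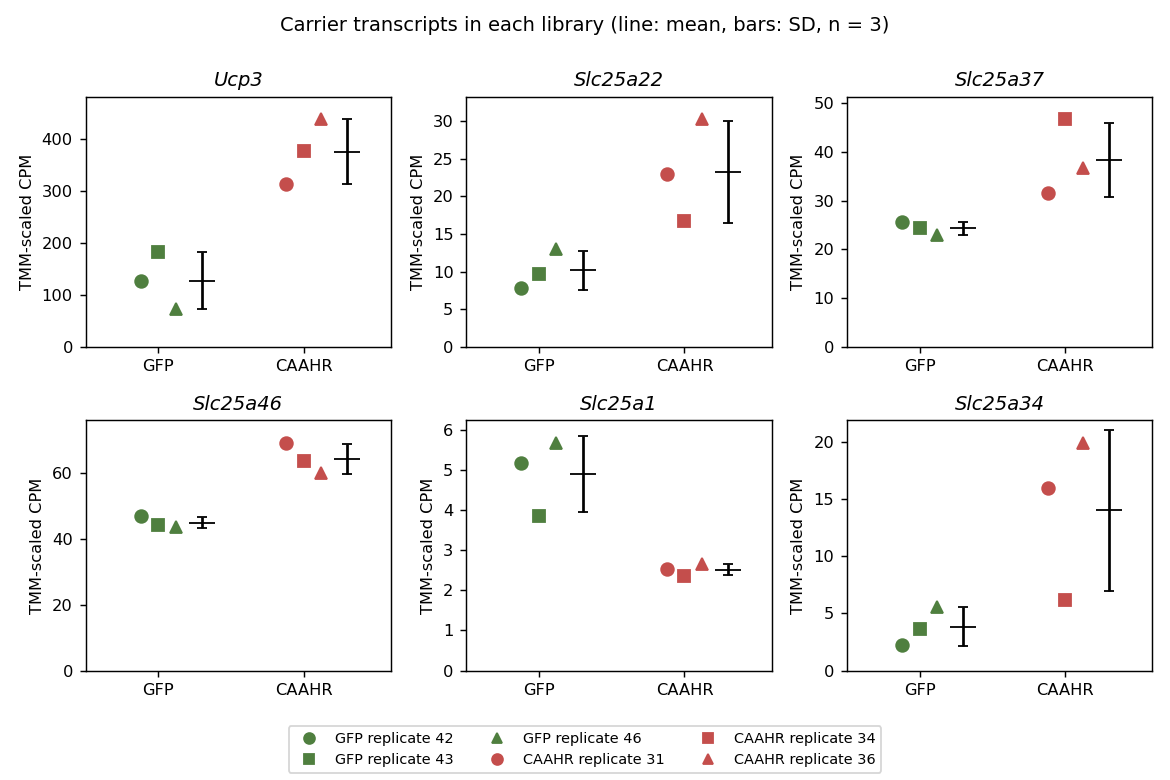
TMM-scaled CPM (vertical axis, each from 0) of Ucp3, Slc25a22, Slc25a37, Slc25a46, Slc25a1 and Slc25a34 in each GFP and CAAHR library; horizontal lines are means and bars are SD (n = 3). The groups do not overlap in any panel, and CAAHR replicate 34 is the highest for Slc25a37 and the lowest for Slc25a22 and Slc25a34 among the CAAHR libraries.

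Ucp3 lies on chromosome 7 (chr7:100472990-100486432, plus strand, GRCm38), and both tested genes at its upstream end were also higher in CAAHR muscles. C2cd3, a centriole protein gene that ends 2838 bases upstream of Ucp3, measured 10.7, 9.68 and 10.9 CPM in CAAHR muscles and 6.86, 6.59 and 6.06 CPM in GFP muscles, a log2 change of 0.68 ± 0.12 (edgeR adjusted p = 0.00864). Gm10603, an antisense gene whose body (chr7:100446737-100474846, minus strand) runs across the start of Ucp3, measured 12.5, 9.64 and 11.1 CPM against 2.98, 6.51 and 4.34 CPM, a log2 change of 1.27 ± 0.26 (edgeR adjusted p = 0.0231) whose call ended on removal of CAAHR replicate 31 or 36 or of GFP replicate 46 (adjusted p up to 0.0995). The exons of Ucp3 overlap no annotated exon of another gene. The body of Gm10603 also overlaps that of C2cd3 (chr7:100372233-100470152, plus strand). Whether the libraries kept strand is not given in the sources used here, so reads in the exons of Gm10603 cannot be assigned to one strand. How far the values of C2cd3 and Gm10603 share reads was not tested. On the other side, Ucp2 begins 6905 bases downstream and was described above. Dnajb13 (-0.09 ± 0.42), Coa4 (0.14 ± 0.18) and Mrpl48 (0.01 ± 0.10), the other tested genes within 100 kb, did not pass the test, and the 6 remaining neighbours had too few counts.

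Among the amino acid carriers, Slc25a22 rose. All 8 tested genes had a fitted change above 0, against 51.2% of all genes, but in edgeR only Slc25a22 had an unadjusted p under 0.05. Slc25a22 (chr7:141429744-141437892, minus strand) brings glutamate into the matrix. It measured 22.9, 16.7 and 30.2 CPM in CAAHR replicates 31, 34 and 36 and 7.81, 9.66 and 12.97 CPM in GFP replicates 42, 43 and 46. Replicate 34 was the lowest CAAHR library and still lay above all GFP libraries. The log2 change was 1.20 ± 0.25 (edgeR adjusted p = 0.0325), and the call ended on removal of CAAHR replicate 31 or 36 or of GFP replicate 42 or 43 (adjusted p up to 0.122). The remaining 7 tested genes, among them the aspartate/glutamate exchanger Slc25a12 of the malate-aspartate shuttle, ranged from 0.09 to 0.66 on the log2 scale and did not pass.

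Of the carriers of iron, glutathione and pyrimidine nucleotides, Slc25a37 rose. Slc25a37 (mitoferrin 1, chr14:69241848-69285112, minus strand) imports iron for haem and iron-sulphur cluster synthesis and is best known from red cell precursors. Its level was 31.7, 46.7 and 36.8 CPM in CAAHR replicates 31, 34 and 36 and 25.7, 24.4 and 22.9 CPM in GFP muscles, a log2 change of 0.66 ± 0.14 (edgeR adjusted p = 0.0212). The GFP libraries lay close together, and replicate 34 was the highest CAAHR library. Summed erythroid markers were 217, 100.3 and 227 CPM in CAAHR replicates 31, 34 and 36 and 101 to 185 CPM in GFP muscles, and the groups overlapped. Their part in the Slc25a37 value was not tested. Antisense exons cover 6.33% of its exon length, and the call ended on removal of CAAHR replicate 36 or of GFP replicate 43 or 46 (adjusted p up to 0.0904). Its relative Slc25a28 (mitoferrin 2), which serves other tissues, measured 40.7, 51.6 and 49.2 CPM against 31.6, 32.9 and 40.2 CPM, a log2 change of 0.44 ± 0.13 that did not pass (edgeR adjusted p = 0.0654). The other 4 genes ranged from -0.21 to 0.31.

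Slc25a46, an unusual member that sits in the outer mitochondrial membrane and takes part in mitochondrial dynamics, showed a small difference that held in each fit with 1 library left out. It measured 69.0, 63.5 and 60.0 CPM in CAAHR muscles and 46.7, 44.0 and 43.6 CPM in GFP muscles. Both groups were tight and well separated. The log2 change of 0.52 ± 0.09, or 1.43-fold, passed the test (edgeR adjusted p = 0.00941), with adjusted p from 0.0110 to 0.0443 over those fits. Antisense exons cover 7.06% of its exon length. Slc25a53, the other tested gene without an assigned role here, stood at 0.16 ± 0.26.

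Among the carriers of di- and tricarboxylates, the citrate carrier fell while the orphan Slc25a34 was high in part of the CAAHR libraries. Slc25a1 (chr16:17925223-17928219, minus strand) exports citrate, the source of cytosolic acetyl-CoA for fatty acid synthesis. It measured 2.53, 2.36 and 2.64 CPM in CAAHR muscles and 5.18, 3.85 and 5.66 CPM in GFP muscles, a log2 change of -0.96 ± 0.18 (edgeR adjusted p = 0.0129) that was lost without GFP replicate 46 (adjusted p = 0.0583). The CAAHR libraries were nearly equal. The summed adipocyte markers, which mark a lipogenic cell type, were also lower in CAAHR muscles. In both groups the library with the least Slc25a1 (CAAHR replicate 34 and GFP replicate 43) had the lowest adipocyte sum, 4.39 and 36.7 CPM. The order did not hold at the upper end in GFP muscles. There replicate 46 had the most Slc25a1 but an adipocyte sum of 79.8 CPM, below the 98.9 CPM of replicate 42. In edgeR 3 of the 7 tested adipocyte markers (Cfd, Plin1 and Retn) fell, against 4.57% of all genes called lower. Cidea instead measured 1.54, 0.700 and 1.64 CPM against 0.145, 0.0721 and 0.529 CPM (2.32 ± 0.62, edgeR adjusted p = 0.0586) and was called higher by DESeq2 and limma-voom. The part of these cells in the Slc25a1 difference was not tested. Slc25a34 (chr4:141618824-141623821, minus strand), whose substrate is not settled, measured 15.96, 6.20 and 19.9 CPM against 2.22, 3.65 and 5.59 CPM. The groups did not overlap, but replicate 34 lay close to the highest GFP library, and the log2 change of 1.87 ± 0.55 did not pass (edgeR adjusted p = 0.112). The dicarboxylate carrier Slc25a10, the oxoglutarate carrier Slc25a11 and Slc25a35 ranged from -0.41 to 0.25 and did not pass. Slc25a35 was placed in this group by sequence relation.

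Carriers of fatty acid and cofactor metabolism did not pass the test in edgeR, although 2 of 3 tested carriers of the carnitine group and 1 of 7 cofactor carriers had an unadjusted p under 0.05, against 23.9% of all genes. The carnitine-acylcarnitine carrier Slc25a20, through which long-chain fatty acids enter the matrix, measured 95.1, 72.6 and 101.9 CPM against 63.5, 68.0 and 74.2 CPM. Replicate 34 fell within the GFP range, and the log2 change was 0.39 ± 0.13 (edgeR adjusted p = 0.107). Slc25a47, best known from liver, measured 3.68, 4.29 and 4.43 CPM against 1.74, 2.24 and 3.10 CPM, a log2 change of 0.81 ± 0.22 (edgeR adjusted p = 0.0536). The coenzyme A carrier Slc25a42 measured 37.9, 40.2 and 40.4 CPM against 34.5, 27.2 and 30.4 CPM, a log2 change of 0.36 ± 0.10 (edgeR adjusted p = 0.0646). Neither Slc25a47 nor Slc25a42 overlapped between the groups. The other 6 tested cofactor carriers ranged from -0.08 to 0.29, and Slc25a45 stood at -0.18. Slc25a45 and Slc25a47 were placed in the carnitine group by sequence relation, and their substrates are not taken as known here.

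The carriers that handle adenine nucleotides and phosphate included the most abundant member of the family. None of these carriers passed in edgeR, DESeq2 or limma-voom. In edgeR 1 of 5 nucleotide carriers had an unadjusted p under 0.05, against 23.9% of all genes. Slc25a4 measured 2532, 2315 and 2517 CPM in CAAHR muscles and 2607, 2859 and 3255 CPM in GFP muscles. Every CAAHR library lay below every GFP library, and the log2 change of -0.24 ± 0.13 did not pass (edgeR adjusted p = 0.280). The second translocase, Slc25a5 (ANT2), which is typical of dividing and non-muscle cells and has processed pseudogenes that can take its reads, measured 33.5, 25.2 and 30.99 CPM against 21.8, 28.5 and 25.7 CPM (log2 change 0.24 ± 0.13, edgeR adjusted p = 0.319). The phosphate carrier Slc25a3 measured 712, 539 and 633 CPM against 532, 630 and 694 CPM, a log2 change of 0.02 ± 0.14 that turned to -0.05 under upper quartile scaling. The calcium-regulated ATP-Mg/phosphate carrier Slc25a23 measured 18.7, 17.2 and 19.6 CPM against 14.1, 12.6 and 17.3 CPM (0.34 ± 0.13, edgeR adjusted p = 0.147). Its relatives Slc25a24 and Slc25a25 stood at -0.19 and -0.46, and Slc25a25 spread from 33.0 to 90.1 CPM in CAAHR and from 64.2 to 137 CPM in GFP muscles.

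Per exon length (RPKM, the CPM divided by the summed exon length in kilobases), Slc25a4 was the most abundant carrier in every library, at 1043 ± 51.4 RPKM in CAAHR muscles and 1235 ± 139 RPKM in GFP muscles (SD, n = 3). In GFP muscles it was followed by Slc25a3 (111 ± 14.7 RPKM), the oxoglutarate carrier Slc25a11 (78.0 ± 11.3), Slc25a12 (53.4 ± 1.38) and Ucp3 (40.6 ± 17.6). Slc25a12 and Ucp3 overlapped, so their order in GFP muscles is not resolved. In CAAHR muscles Ucp3 reached 119.9 ± 19.9 RPKM, a level that overlapped that of Slc25a3 (113 ± 15.6) and the upper part of that of Slc25a11 (92.9 ± 11.0), with Slc25a12 at 59.5 ± 3.67 RPKM. Slc25a5, the sixth by the mean over all 6 libraries, stood at 18.2 ± 2.58 RPKM in CAAHR and 15.4 ± 2.04 RPKM in GFP muscles, and overlapped Slc25a20 (18.5 ± 3.17 and 14.2 ± 1.11 RPKM) in both. Of these, antisense exons of Rnf167 cover 8.92% of the exon length of Slc25a11.

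**Figure D3:**
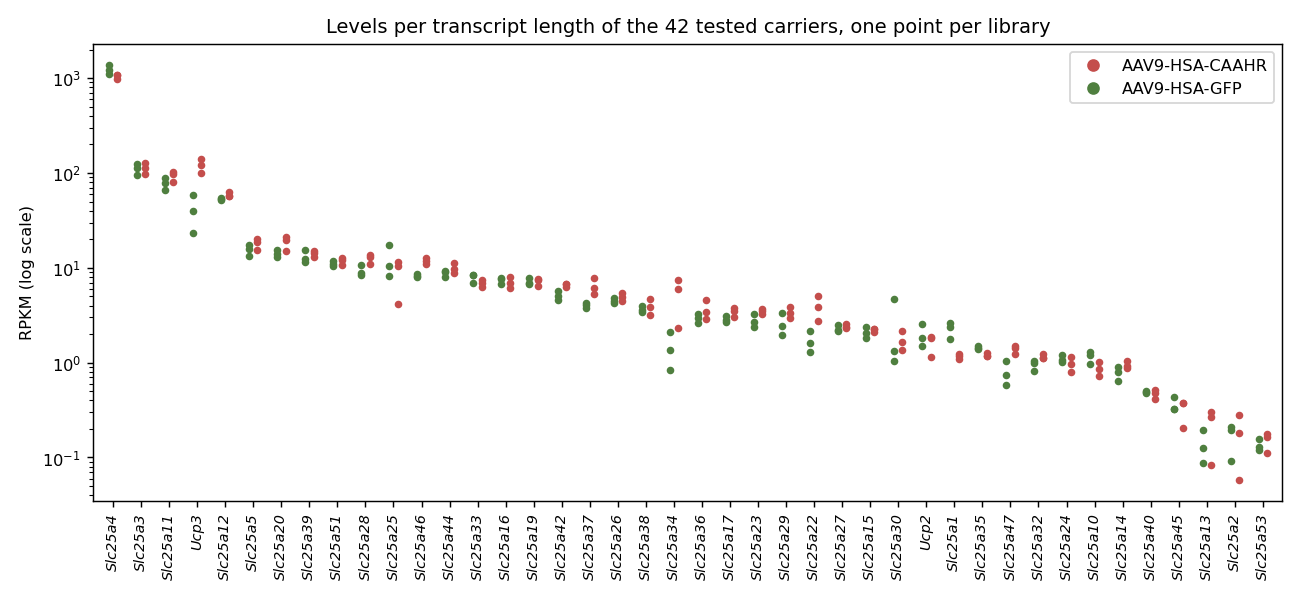
RPKM (vertical log axis) of the 42 tested carriers ordered by mean level, 1 point per library and coloured by group. Slc25a4 lies between 984 and 1383 RPKM, and Ucp3 is the abundant carrier whose CAAHR and GFP points stand furthest apart.

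The carriers together held a similar part of all counts in both groups, 0.505% ± 0.0379 in CAAHR and 0.478% ± 0.0381 in GFP muscles (SD, n = 3), and the sign of this difference turned on TMM-scaled totals. The composition within the carriers differed more. Slc25a4 made up 49.9% to 50.2% of the carrier counts in CAAHR muscles and 57.1% to 61.3% in GFP muscles, while Ucp3 made up 6.18% to 8.74% and 1.38% to 3.66%. The RPKM of Slc25a4 was 7.65 to 10.8 times that of Ucp3 in CAAHR muscles and 20.8 to 59.4 times in GFP muscles. These shares are set by the same counts as the fold changes above and are given without a test.

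The slow fibre markers did not move alike in the 3 CAAHR libraries, and some carriers followed them. Relative to the GFP mean, Slc25a34 stood at 4.18 and 5.20 times in CAAHR replicates 31 and 36, where the slow fibre score (mean centred log2 CPM of the 9 markers) was 1.91 and 1.83, and at 1.62 times in replicate 34, where it was -0.21. Slc25a22 was likewise 2.26, 1.64 and 2.98 times the GFP mean in replicates 31, 34 and 36. Ucp3 did not follow this order, at 2.46, 2.96 and 3.44 times, nor did Slc25a37, at 1.30, 1.92 and 1.51 times. With the score as a covariate, a fit in which the score and the group share much of their variation, the log2 change was 1.82 ± 0.70 for Ucp3 (edgeR adjusted p = 0.289), 0.31 ± 0.23 for Slc25a22 (0.524), 1.11 ± 0.16 for Slc25a37 (0.00551), 0.54 ± 0.16 for Slc25a46 (0.115) and -1.12 ± 0.33 for Slc25a1 (0.105). Slc25a37 was then the only carrier past the test, and Slc25a34 (-0.07) and Slc25a20 (-0.10) turned below 0.

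**Figure D4:**
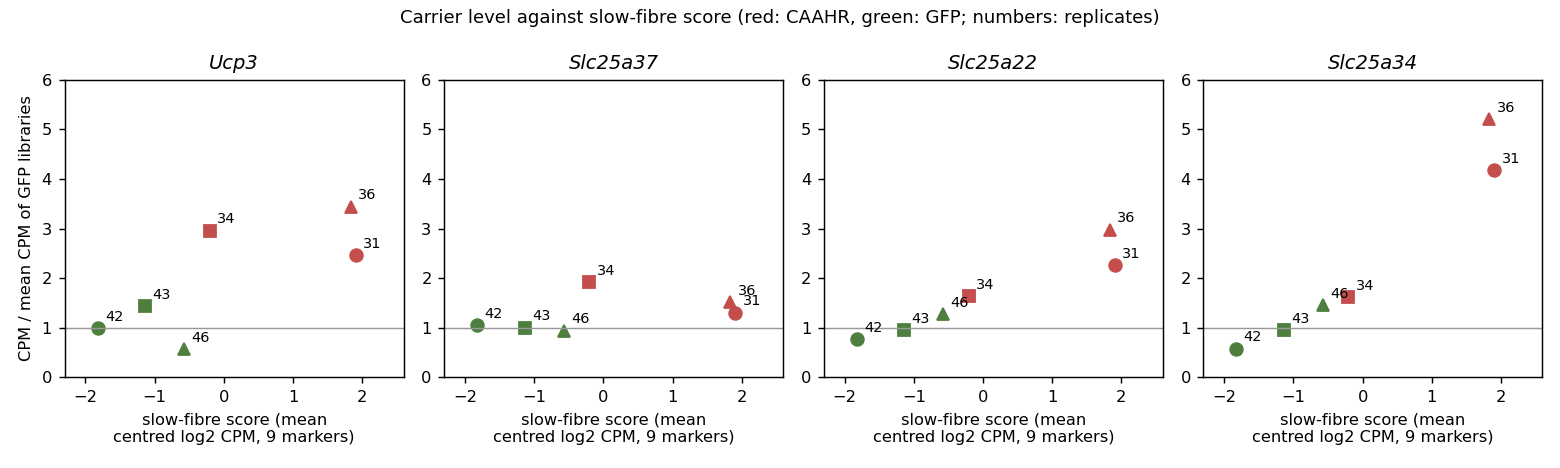
Level relative to the GFP mean (vertical axis) of carriers against the slow fibre score (horizontal axis, mean centred log2 CPM of 9 markers), 1 point per library. CAAHR replicate 34, with a score of -0.21, lies apart from replicates 31 and 36 and keeps a high level of Ucp3 and Slc25a37 but not of Slc25a34.

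Genes that work with the carriers were examined as 4 lists of 60 genes in all, of which 59 were tested and 4 passed (6.78%, against 7.60% of all genes). Among the 18 tested PPAR target genes of muscle, Pdk4 and Acot2 rose (11.1%, against 3.04% of all genes called higher). For 17 the fitted change was above 0, against 51.2% of all genes, and the median log2 change was 0.82. The groups did not overlap for 8 of the 18, 7 higher and 1 lower, against 29.9% of all genes. In others, among them Fabp3, Lpl and Acadvl, CAAHR replicate 34 lay within the GFP range. Pdk4, the kinase that restrains pyruvate oxidation, measured 1287, 958 and 1416 CPM in CAAHR muscles and 562, 504 and 283 CPM in GFP muscles (1.44 ± 0.26, edgeR adjusted p = 0.0181), a call that ended on removal of CAAHR replicate 31 or 36. Acot2, a mitochondrial acyl-CoA thioesterase, measured 26.5, 18.0 and 29.7 CPM against 14.9, 13.6 and 13.97 CPM (0.80 ± 0.17, edgeR adjusted p = 0.0247), a call kept on removal of CAAHR replicate 34 and of no other library. In both, replicate 34 was the lowest CAAHR library, as it was for the slow fibre markers. The lipid droplet protein gene Plin5 (1.56 ± 0.48) did not pass (edgeR adjusted p = 0.125), and neither did Ppara itself (1.94 ± 0.57, edgeR adjusted p = 0.109), which turned to -0.21 and -0.33 with the slow fibre score as a covariate. DESeq2 called 10 of these target genes, 9 higher and Plin2 lower, and limma-voom called 9, all higher, both of 18 with an adjusted p and against the shares of 10.7% and 9.22% of all genes.

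Calls in the other lists stand beside shares over all genes of 7.60% in edgeR, 10.7% in DESeq2 and 9.22% in limma-voom. In edgeR the share called was 10% of the regulators known for Ucp3 and 7.14% of the shuttle and carnitine enzymes. Of the 10 regulators known for Ucp3, only the thyroid hormone receptor Thra passed in edgeR, and it fell by 0.47 ± 0.10 on the log2 scale (edgeR adjusted p = 0.0247), a call that ended on removal of CAAHR replicate 31 or 36 or of GFP replicate 42 or 46. DESeq2 and limma-voom called Thra lower and Ppara higher (Ppara adjusted p = 0.0233 and 0.0441), and edgeR without robust estimation also called Ppara (0.0396). Of the 14 enzymes of the shuttles and of carnitine metabolism, only muscle creatine kinase Ckm passed in edgeR and fell (-0.73 ± 0.16, edgeR adjusted p = 0.0251), a call kept on removal of CAAHR replicate 34 and of no other library, while the carnitine palmitoyltransferase Cpt1a stood at 0.73 ± 0.22 (edgeR adjusted p = 0.0782). DESeq2 called Ckm lower and Cpt1a (adjusted p = 0.00956) and Cpt2 higher in this list, and limma-voom called Ckm alone. None of 17 other transporters and import proteins of the inner membrane passed in edgeR, DESeq2 or limma-voom. In edgeR 2 of the 17 had an unadjusted p under 0.05, against 23.9% of all genes, and the median log2 change was 0.03. The furthest from 0 were Sfxn1 (-0.57 ± 0.18) and Sfxn5 (0.37 ± 0.16). The number of the 59 genes past the test depended on the tool and on single libraries. It was 15 in DESeq2, 12 in limma-voom, and in edgeR 21 without CAAHR replicate 34, 0 on removal of CAAHR replicate 31 or 36, 2 on removal of GFP replicate 42 or 43 and 1 on removal of GFP replicate 46.

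**Figure D5:**
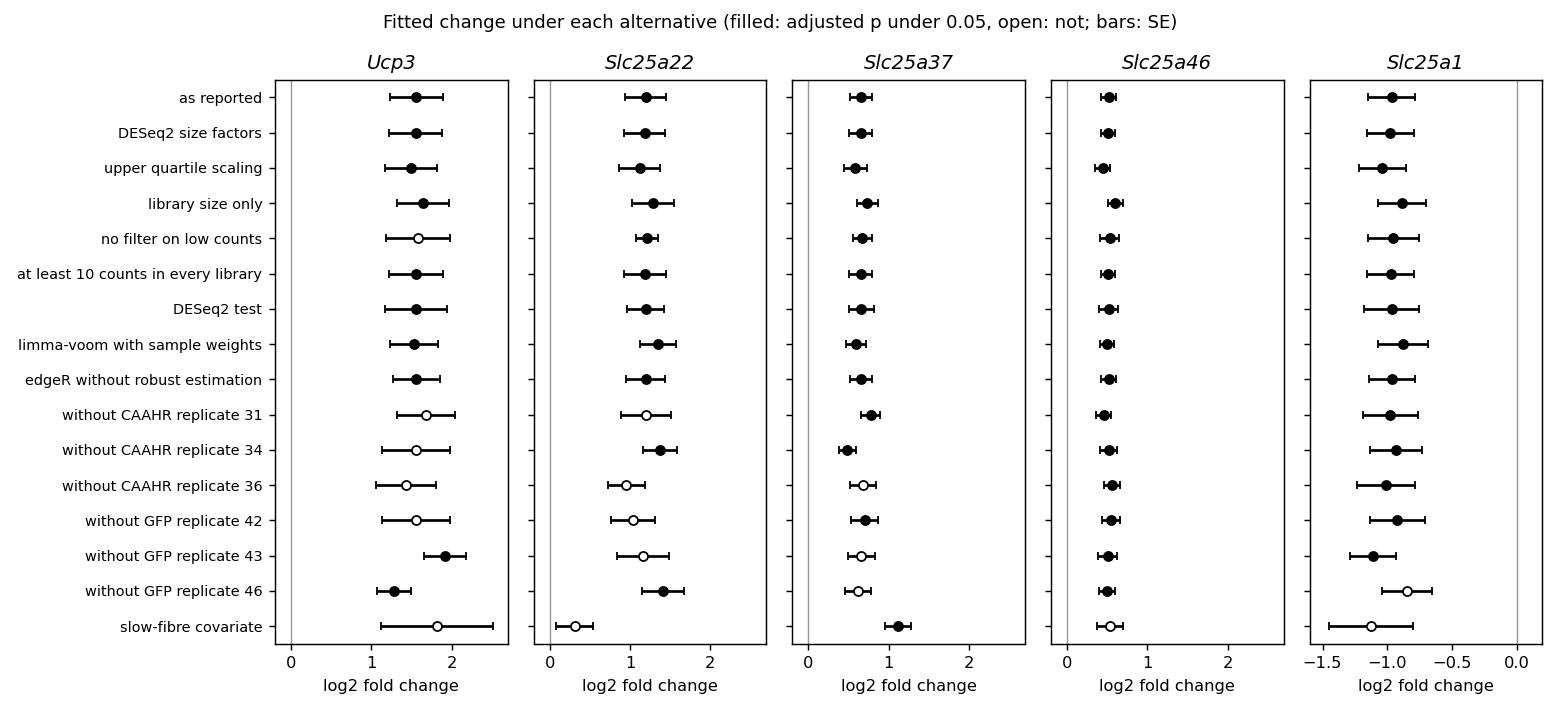
Fitted log2 fold change (horizontal axis, bars are SE) of the 5 carriers under each scaling, filter, tool, left-out library and covariate, with filled points at an adjusted p under 0.05. Every point of a carrier lies on one side of 0, and open points are most frequent for Ucp3 (6) and Slc25a22 (5).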

How the data were processed

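Gastrocnemius RNA from 3 AAV9-HSA-CAAHR and 3 AAV9-HSA-GFP muscles was analysed. The authors deposited raw read counts per gene. They prepared poly(A) libraries, trimmed paired-end reads with Trimmomatic 0.36, aligned them to GRCm38 with STAR 2.5.2b and counted uniquely mapped exonic reads with featureCounts. Counting followed strand only if the libraries were stranded. Whether they were, and the annotation release, are not given in the sources used here. Multi-mapping reads were therefore lost, which can lower genes with near-identical copies.

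From these counts, genes passing filterByExpr (15847) were scaled by TMM and tested with the robust quasi-likelihood F test of edgeR 4.0.16 in R 4.3.3, with Benjamini-Hochberg adjustment over all tested genes and a threshold of 0.05. SE was the log2 change divided by the root of F. RPKM used exon lengths of GENCODE mouse release 21 on GRCm38, which annotates all 50 carriers. DESeq2 1.42.0, limma 3.58.1, other scalings and filters, left-out libraries and a slow fibre covariate were alternatives, and the fits were tested on simulated data. Values in every library are given for the uncoupling proteins and for carriers with an unadjusted p under 0.05. They are also given for the 6 most abundant carriers except Slc25a11 and Slc25a12, which are given as group means. From each partner list the called genes and the 2 largest changes are named, and around Ucp3 the genes within 100 kb. The carriers, lists and tests were chosen with earlier results of these data known.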

Additional observations from a re-analysis of the deposited data

How the results depend on the processing

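No paired analysis was possible because no replicate number occurs in both groups. Ucp3 kept its direction under every alternative and lost its call with no filter on low counts (log2 change 1.58, edgeR adjusted p = 0.134) and with the slow fibre covariate (1.82). Leaving out 1 library at a time gave 1.28 to 1.92 for Ucp3, 2 to 6 carriers past the test, and 0 to 21 of the partner and pathway genes. Instead of 5 carriers, 8 passed with library size only, 8 with no filter, 9 in DESeq2, 9 in limma-voom and 1 with the covariate. Instead of 4 partner and pathway genes, 7 passed with library size only, 15 with no filter, 15 in DESeq2, 12 in limma-voom, 7 in edgeR without robust estimation and 2 with the covariate. Over all genes 1205 passed, against 2470 with no filter, 1932 in DESeq2, 443 with the covariate and 530 to 1727 with 1 library left out. Of the called genes 481 were higher and 724 lower, against 358 and 990 with upper quartile scaling and 876 and 600 with library size only. The cause of these shifts was not tested.

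Signs turned for Mrpl48 (-0.060 with upper quartile scaling, -0.020 in limma-voom), Slc25a3 (-0.051 with upper quartile scaling) and, with the covariate, for Slc25a3 (-0.42), Slc25a34 (-0.072), Slc25a20 (-0.10), Slc25a11 (-0.18), Slc25a5 (-0.19), Plin5 (-0.21) and Ppara (-0.33). With 1 library left out, Slc25a3 ranged from -0.084 to 0.11, Mrpl48 from -0.073 to 0.087 and Dnajb13 from -0.31 to 0.17, all far from the threshold. Over the named single genes, 403 of 494 repeats kept direction and side of the threshold, 42 lost the call, 31 gained it and 18 turned. The covariate fit has few residual degrees of freedom.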
